A study of Mus musculus with 78 samples.

Results

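Striatal RNA was compared between methamphetamine and saline mice on the last withdrawal day of the study, labelled day 24, over all 12371 genes that could be tested. The comparison rests on 6 of the 78 expression arrays, the 3 methamphetamine and the 3 saline arrays that the labels place in withdrawal on day 24. All mice were of the strain C57BL/6J. The methamphetamine mice had received D-methamphetamine intraperitoneally, 2 injections a day over 12 days, with a first dose of 2 and a last dose of 8 mg/kg, and the saline mice had received saline on that schedule. Neither group carried an engineered allele according to the labels, which give no age. The signal table's headers number the same withdrawal day 12, and the days labelled 13, 15 and 18 as 1, 3 and 6, which would place the samples 12 days past the final injections. The series' description instead counts 24 as days of withdrawal, so the length of abstinence is inferred, and day 24 is used as a name.

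The rest of the series holds methamphetamine, heroin and saline arrays of treatment days 1, 3, 6 and 12 and of withdrawal days 13, 15, 18 and 24, with 3 arrays per group, and 6 arrays of naive mice. To ask which treatment changes were gone, the methamphetamine change was also estimated as the mean of treatment days 3, 6 and 12, from 9 methamphetamine and 9 saline arrays. Day 1 was kept out of that mean, because earlier results of these data had shown hippocampal genes on the methamphetamine day 1 arrays. On that day alone 894 genes passed the threshold. The labels number the replicates without saying that they were separate animals, so p-values measure the spread between these samples, which may be technical.

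Levels are log2 of the quantile-normalized probe signal, and changes are log2 differences, methamphetamine minus saline, fitted with limma together with a term for each of the 13 slides and given ± SE. Calls use Benjamini-Hochberg adjusted p-values over all genes and a threshold of 0.05. The median raw signal was 122, 108 and 184 on the methamphetamine arrays and 125, 127 and 126 on the saline arrays. No slide held both groups, and both groups had 1 array on chip lot 1 and 2 arrays on chip lot 2. All 3 saline arrays and 2 of the methamphetamine arrays lay at slide position F, with methamphetamine replicate 1 at position E. Mean correlation with the other arrays of the same group was 0.995 to 0.996 for methamphetamine and 0.991 to 0.993 for saline. The number of arrays limits the precision: the median 95% interval of a day 24 change reached 0.233 log2 units to either side.

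The striatum is the input station of the basal ganglia and consists mainly of medium spiny neurons, which carry dopamine receptors and opioid peptides. Methamphetamine enters dopamine terminals and releases dopamine, and repeated dosing also engages stress hormone signalling, glial cells and the molecular clock. In that clock the activators CLOCK and BMAL1 bind E-box sequences and switch on their own repressors, the PER, CRY and CIART proteins, together with output genes such as Dbp.

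The tissue label was checked against medium spiny neuron markers, of which 13 of 16 could be tested. Drd1, the D1 dopamine receptor gene, was at 12.45, 12.69 and 12.67 on methamphetamine arrays and at 12.66, 12.35 and 12.62 on saline arrays. Drd2, the D2 receptor gene, was at 11.07, 11.21 and 11.41 on methamphetamine arrays, against 11.31, 10.75 and 11.18 on saline arrays. Over the 13 markers the mean level was 12.34 to 12.45 on methamphetamine arrays and 12.04 to 12.38 on saline arrays, so the defining genes were high on every array of both groups. Adora2a, which also marks these neurons, was not tested.

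No gene differed between methamphetamine and saline on day 24 at the threshold (0 of 12371, 0%). limma's smallest adjusted p was 0.999874. At an unadjusted p below 0.05 there were 374 genes (3.02%), of which 230 (1.86%) had higher and 144 (1.16%) lower fitted values in methamphetamine samples. That count depends on the model: 649 with no slide term, 883 with chip lot in place of slide, 1457 with only the groups compared and 258 with median centring. None of these settings gave a gene past the adjusted threshold. The sizes of the fitted changes lay below 0.230 log2 units for 95% of genes, and 16 genes exceeded 0.5. Before slide terms were removed, the 3 methamphetamine and the 3 saline arrays did not overlap for 2110 genes (17.1%), 1007 (8.14%) with higher and 1103 (8.92%) with lower methamphetamine levels. Differences of the array means and fitted changes had opposite signs for 3914 genes (31.6%), so the direction of a small change depends on the slide terms.

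During treatment 35 genes (0.283%) had differed between methamphetamine and saline, 24 of them rising (0.194%) and 11 falling (0.0889%). This list depends on the arrays in the fit: 2 genes passed without the heroin and naive arrays, and 14 without saline treatment day 6 replicate 1. On day 24 none of the 35 passed the threshold, and none had an unadjusted p below 0.05 on the probe that represents it. The 24 genes that had risen by a median of 0.35 had a median day 24 change of 0.06, with 15 of 24 above 0, where 52.4% of all genes were above 0 around a median of 0.01. The direction of that median depends on the setting: with no slide term 11 of 24 were above 0 with a median of -0.02, and against all 12 saline withdrawal arrays 19 of 24 with a median of 0.14. The 11 genes that had fallen, with a median treatment change of -0.25, had a median day 24 change of 0.01, with 5 of 11 below 0. The day 24 change was smaller in size than the treatment change in 35 of 35, which selection of the genes for a large treatment change favours. For 19 of the 35 genes, 13 that rose and 6 that fell, the 95% interval of the day 24 change excluded the treatment estimate (4.36% of all genes). Such exclusion takes no account of the SE of the treatment estimate, and the selection of these genes favours it. Treatment changes over all genes had a median size of 0.045, so the 4.36% is not a like baseline. The difference itself passed the threshold for 1 of the 35. For the other 16 genes the interval held both 0 and the treatment estimate, so for these neither a full return nor a full persistence could be told from 3 arrays against 3. Closest to the threshold in treatment were Adamtsl1 and Specc1 with adjusted p of 0.0426 and 0.0473 inside it, and Npy1r and Lmcd1 with 0.0559 and 0.0604 outside it.

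**Figure D1:**
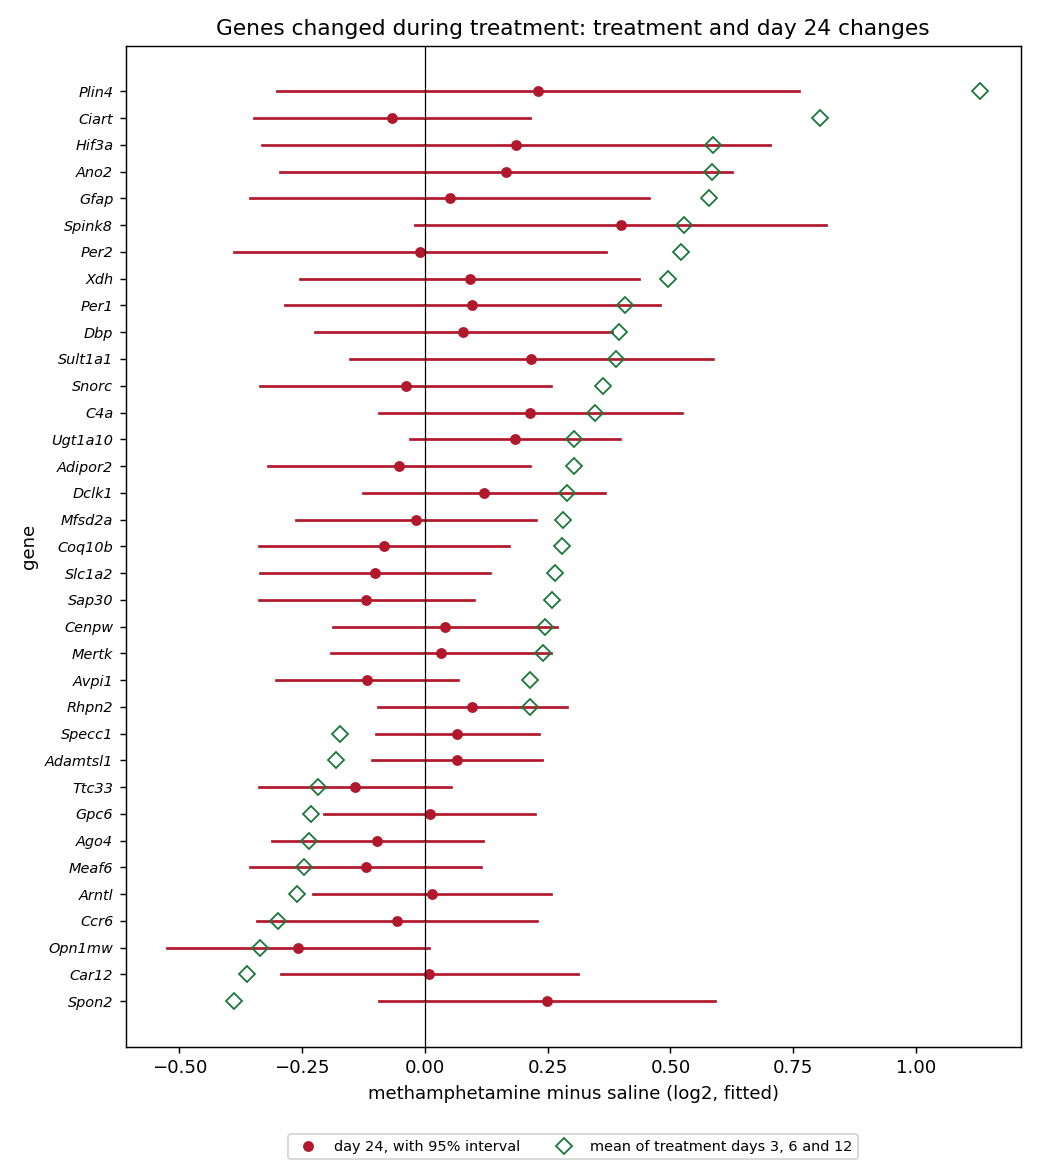
Fitted methamphetamine minus saline change (log2, horizontal axis) of the 35 genes that changed in treatment, with a row for each gene: filled circles are day 24 with 95% intervals, open diamonds the mean of treatment days 3, 6 and 12. All 35 intervals reach across 0, and 19 leave out the diamond, among them those of Plin4, Ciart, Gfap and Per2.

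The difference between the treatment and the day 24 change passed the threshold for 1 gene, Ciart (0.00808%), at 0.87 ± 0.145 log2 units with limma's adjusted p of 0.00299. Ciart, the circadian repressor that binds BMAL1, was at 10.03, 10.16 and 10.26 on methamphetamine arrays of day 24 and at 10.22, 10.22 and 10.10 on saline arrays. These values overlap, and the fitted change was -0.07 ± 0.140, a 0.955-fold level with a 95% interval of 0.786 to 1.16. In treatment the same probe had risen 1.75-fold (0.80 ± 0.0700 log2 units). Ciart has 3 probes past the filter, with treatment changes of 0.80, 0.79 and 0.56 and day 24 changes of -0.07, 0.27 and 0.07. The second of them was nearly as bright as the first, with mean levels of 9.53 and 9.66. Its day 24 change was 0.27 ± 0.125 with limma's unadjusted p of 0.0385, so a part of the rise may remain by that probe. The difference between the periods was 0.87, 0.53 and 0.49 by probe, so all 3 gave a smaller day 24 change but of unlike size. The call was lost without methamphetamine day 24 replicate 2, without the heroin and naive arrays, without slide terms and on chip lot 2 alone. It was also lost with chip lot in place of slide, a replicate block, only the groups compared or day 1 included. The difference stayed above 0 under every setting tried.

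Promoter sequence is shown for Ciart and Per1, the clock genes among those that rose in treatment whose promoter windows hold the E-box. The windows run from 250 bases before to 50 bases after the start site and come from RefSeq on GRCm38.p6. Ciart lies on the minus strand at chr3:95882179-95882478, and Per1, a clock repressor gene, on the plus strand at chr11:69098699-69098998. Capitals mark each E-box, searched as CACGTG, a palindrome that reads the same on both strands, with 3 copies in Ciart and 1 in Per1.
Ciart: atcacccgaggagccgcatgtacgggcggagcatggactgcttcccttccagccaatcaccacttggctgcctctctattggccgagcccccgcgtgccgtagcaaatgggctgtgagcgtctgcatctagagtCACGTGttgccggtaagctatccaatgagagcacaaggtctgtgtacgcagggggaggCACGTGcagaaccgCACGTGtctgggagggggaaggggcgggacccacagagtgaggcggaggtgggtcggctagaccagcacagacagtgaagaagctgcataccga
Per1: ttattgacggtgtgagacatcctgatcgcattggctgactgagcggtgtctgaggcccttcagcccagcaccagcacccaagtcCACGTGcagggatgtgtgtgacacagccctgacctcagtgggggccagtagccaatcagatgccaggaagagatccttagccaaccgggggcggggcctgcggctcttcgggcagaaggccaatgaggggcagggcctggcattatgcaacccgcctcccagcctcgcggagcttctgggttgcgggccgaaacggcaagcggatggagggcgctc
The E-box occurs in 2349 of 32851 RefSeq promoters (7.15%). It was found in 3 of the 23 promoters available for the genes that rose in treatment, in Ciart, Coq10b and Per1, and in 0 of the 12 available for the genes that fell. Among clock genes 4 of 20 promoters held it (20%). The other motifs searched, on both strands, were the Rev-erb element AGGTCA, found in 7 of the 23 promoters of genes that rose (30.4%) and in 16.3% of all, the D-box, found in 1 of the 23 (4.35%) and in 0.938% of all, and the glucocorticoid element, found in 0 of the 23 and in 0.0487% of all. These matches describe the windows and say nothing of binding.

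None of the other clock genes that had changed in treatment passed the threshold on day 24. Per2, a repressor like Per1, was at 10.91, 10.69 and 10.69 on methamphetamine arrays and at 10.82, 10.70 and 10.92 on saline arrays. Its day 24 change was -0.01 ± 0.188 (95% interval -0.39 to 0.37), which excludes the treatment rise of 0.52 ± 0.0943. The groups overlap almost fully. Per1 was at 11.03, 11.32 and 11.47 on methamphetamine arrays, against 11.09, 11.35 and 11.46 on saline arrays, with a change of 0.10 ± 0.190 and a treatment rise of 0.41 ± 0.0952. Its interval, -0.29 to 0.48, holds both. Dbp, the output gene, was at 13.53, 13.67 and 13.76 on methamphetamine arrays and at 13.53, 13.29 and 13.54 on saline arrays, with a fitted change of 0.08 ± 0.151 against a treatment rise of 0.39 ± 0.0755.

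Arntl, which encodes the activator BMAL1, was at 9.72, 9.70 and 9.76 on methamphetamine arrays and at 9.31, 9.61 and 9.41 on saline arrays. All methamphetamine arrays lay above all saline arrays, by 0.28 in the mean, yet the fitted change was 0.01 ± 0.121 once slide terms were removed, and its treatment fall had been -0.26 ± 0.0604. The sign of any Arntl difference on day 24 is therefore not settled by these arrays. Of the 16 clock genes tested 4 rose and 1 fell in treatment, where 0.194% of all genes rose and 0.0889% fell. This list too was chosen with earlier results of these data known. Its median change was 0.18 in treatment and 0.00 on day 24, with 8 genes above and 8 below 0. Tef and Bhlhe40, a transcription factor driven by the clock and a repressor within it, had fitted day 24 changes of 0.12 ± 0.148 and -0.13 ± 0.155.

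The Ciart levels of each group by day were as follows. In methamphetamine mice Ciart averaged 9.77 ± 0.31, 10.10 ± 0.11 and 10.32 ± 0.18 on treatment days 3, 6 and 12 and 10.15 ± 0.12 on day 24 (SD, n = 3 each). In saline mice it averaged 9.20 ± 0.20, 9.20 ± 0.18 and 9.33 ± 0.20 on the same treatment days and 10.18 ± 0.07 on day 24. The day 24 level of methamphetamine mice was thus near their treatment level, while the saline level was higher than on the earlier days. Saline mice averaged 9.23 ± 0.27, 9.05 ± 0.36 and 9.53 ± 0.29 on withdrawal days 13, 15 and 18, naive mice 9.10 ± 0.24 (SD, n = 6), and heroin mice of day 24, which were compared with the same saline arrays, 10.26 ± 0.30.

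**Figure D2:**
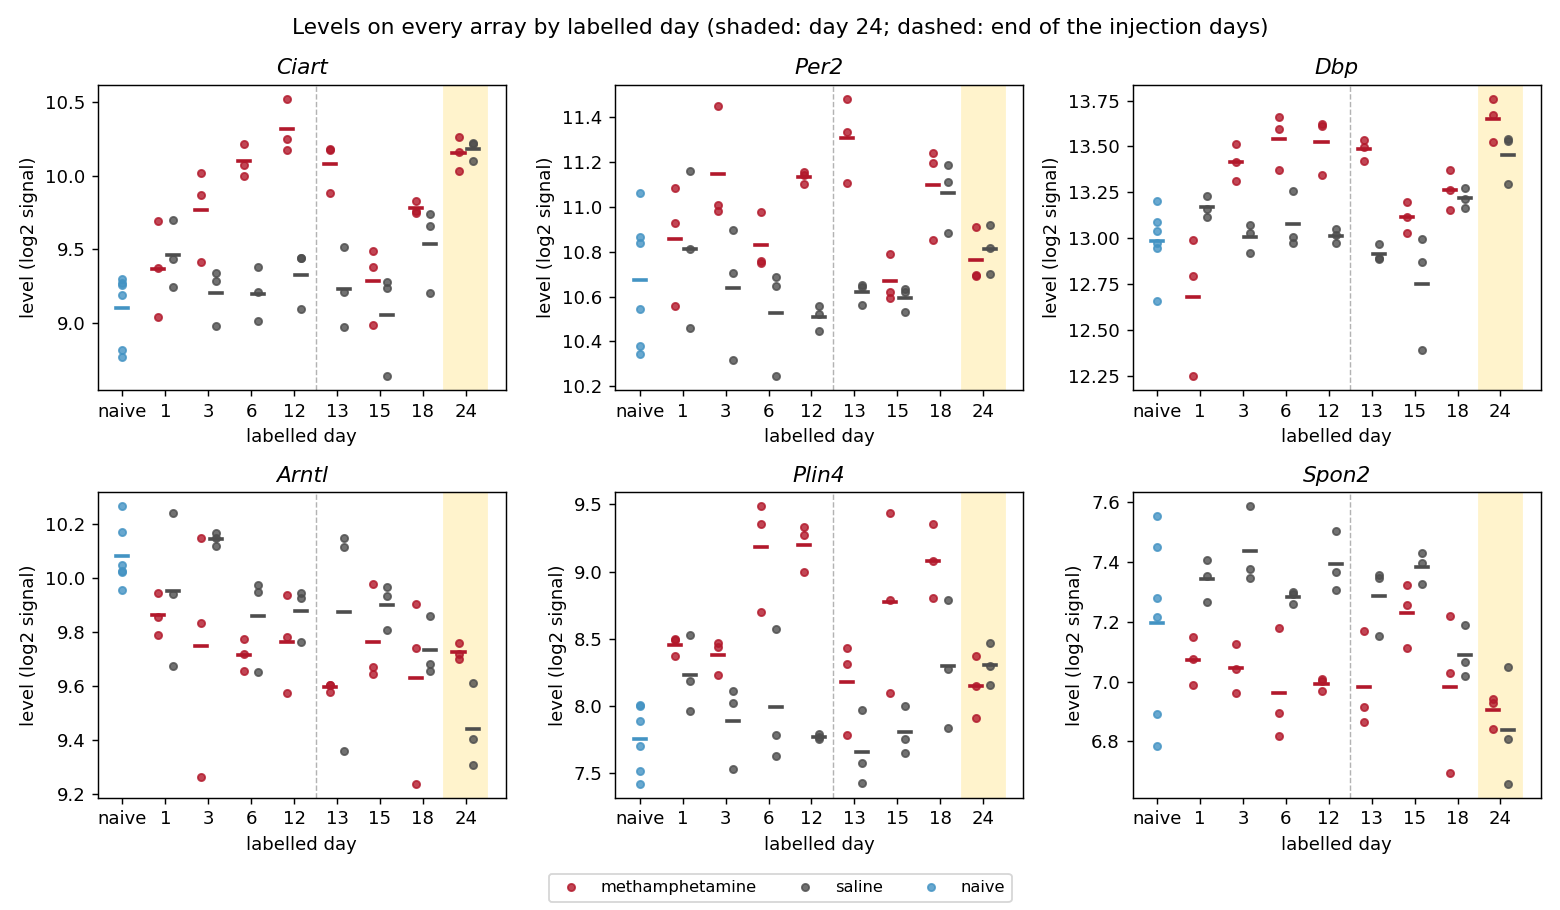
Level (log2 signal, vertical axis) of 6 genes on every methamphetamine, saline and naive array by labelled day, with group means as bars, day 24 shaded and a dashed line at the end of the injection days. Ciart in saline mice is near 9.2 in treatment and at 10.18 on day 24, and Plin4 in methamphetamine mice is at 9.20 on day 12 and at 8.15 on day 24.

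Contrasts within each group of mice were chosen after these levels had been seen, so for Ciart they restate the levels and are no independent test. Day 24 minus treatment days 3, 6 and 12 gave 1 gene past the threshold in methamphetamine mice (0.00808%) and 2 in saline mice (0.0162%). Ciart changed by 0.04 ± 0.0973 in methamphetamine mice, and by 0.91 ± 0.0962 in saline mice. Spon2, which encodes the matrix protein spondin 2, changed by -0.01 ± 0.118 in methamphetamine mice and by -0.65 ± 0.117 in saline mice (limma adjusted p 0.00676), a call lost without saline day 24 replicate 1 or 3, without slide terms, with chip lot in place of slide, under the stricter filter and on chip lot 2 alone. The gene past the threshold in methamphetamine mice was Gkn3, a gastrokine family gene, higher on day 24 by 0.75 ± 0.137 with an adjusted p of 0.0167, and by 0.46 ± 0.135 in saline mice without a call. The Gkn3 call was lost without methamphetamine day 24 replicate 1 or 2, with median centring, a replicate block, array position as a term or only the groups compared, without the heroin and naive arrays and on chip lot 2 alone. Among the 24 genes that rose in treatment the day 24 level was below the treatment level for 19 in methamphetamine mice, with a median of -0.10, and above it for 19 in saline mice, with a median of 0.18. Among the 11 that fell it was above for 9 in methamphetamine mice, median 0.05, and below for 10 in saline mice, median -0.12, where the median of all genes was -0.00 in both. The saline treatment arrays had helped to choose these 35 genes, so the counts are descriptions.

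**Figure D3:**
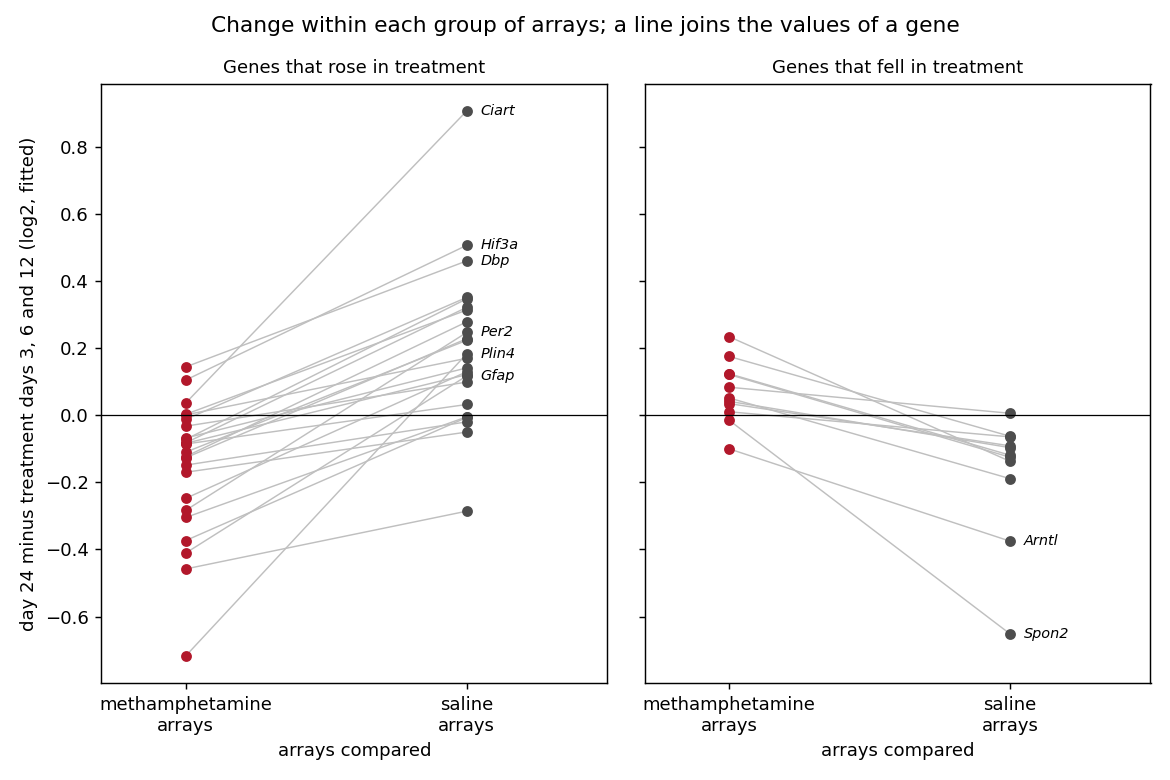
Day 24 level minus the mean of treatment days 3, 6 and 12 (log2, fitted, vertical axis), in methamphetamine and in saline arrays, for the 24 genes that rose and the 11 that fell in treatment; a line joins the values of a gene. Ciart is at 0.04 in methamphetamine and 0.91 in saline arrays, and Spon2 at -0.01 and -0.65.

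Array position moved with the day in both groups: arrays of treatment days 3, 6 and 12 lay at positions A to C, and all but 1 of the day 24 arrays at F. With position as a further term limma called no gene within either group of mice, with 543 genes in methamphetamine and 630 in saline mice at an unadjusted p below 0.05, and the saline difference of Ciart was 1.01 with an adjusted p of 0.953. The hour of day at which mice were killed is not given in the sources used here, and its part in the result was not tested. Against all 12 saline withdrawal arrays in place of the 3 of day 24, 3 genes passed on day 24: Ciart at 0.57 ± 0.0975 (adjusted p 0.00473), Dbp at 0.52 ± 0.105 (adjusted p 0.0429) and Inmt, a methyltransferase gene, at 0.69 ± 0.130 (adjusted p 0.0151). Inmt was also at 0.43 against the day 24 saline arrays alone, where it was not past the threshold.

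Of the 24 glucocorticoid-responsive genes tested 5 had risen in treatment, where 0.194% of all genes had risen. Among them was Per1, which the clock list also holds. The list was drawn up with earlier results of these data known, so this count is a description only. Plin4, which encodes a lipid droplet coat protein, was at 7.91, 8.38 and 8.15 on methamphetamine arrays of day 24 and at 8.16, 8.47 and 8.30 on saline arrays. The methamphetamine arrays were slightly lower with overlap, and the fitted change was 0.23 ± 0.264, a 1.17-fold level with a 95% interval of 0.811 to 1.69, against a 2.19-fold rise in treatment (1.13 ± 0.132). The interval excludes the treatment estimate. Plin4 averaged 9.18 ± 0.42 and 9.20 ± 0.18 in methamphetamine mice on treatment days 6 and 12, 9.08 ± 0.28 on withdrawal day 18 and 8.15 ± 0.23 on day 24, while saline mice averaged 8.00 ± 0.51, 7.77 ± 0.02, 8.30 ± 0.48 and 8.31 ± 0.16 on those days (SD, n = 3 each). Within methamphetamine mice its day 24 level differed from treatment by -0.72 ± 0.184 (adjusted p 0.525), and within saline mice by 0.18 ± 0.182.

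Hif3a, an alpha subunit of the hypoxia-inducible factor, was at 8.77, 8.54 and 8.75 on methamphetamine arrays and at 8.46, 8.64 and 8.92 on saline arrays. The groups overlap and the change was 0.19 ± 0.257 against 0.59 ± 0.129 in treatment, an interval that holds both values. Other Hif3a probes had treatment changes of 0.06 and 0.08 and day 24 changes of -0.09 and -0.20, so the gene's probes disagree. Sult1a1, a sulfotransferase gene, and Mertk, which encodes a receptor for the uptake of dying cells, had day 24 changes of 0.22 ± 0.184 and 0.03 ± 0.111 against treatment rises of 0.39 and 0.24. On day 24 none of the glucocorticoid-responsive genes passed, and the list's median was 0.04, with 13 genes above and 11 below 0, against 0.16 in treatment. Sgk1, a kinase gene, and Fkbp5, a chaperone of the glucocorticoid receptor, are standard members of that list. Sgk1 had a day 24 change of -0.05 ± 0.236 and Fkbp5 of 0.07 ± 0.120.

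Further genes that had risen in treatment belong to none of the pathway lists. Xdh, which encodes xanthine dehydrogenase of purine breakdown, was at 7.90, 7.94 and 7.80 on methamphetamine arrays and at 8.09, 7.80 and 7.59 on saline arrays, with a change of 0.09 ± 0.171 that excludes the treatment rise of 0.50 ± 0.0859. Mfsd2a, the transporter of lysophospholipids at the blood-brain barrier, changed by -0.02 ± 0.122 on day 24 against 0.28 ± 0.0610 in treatment. Coq10b, Adipor2 and Sap30, which encode a coenzyme Q binding protein, an adiponectin receptor and a histone deacetylase subunit, were at -0.08 ± 0.126, -0.05 ± 0.133 and -0.12 ± 0.109. The intervals of all these genes exclude their treatment rises of 0.28, 0.30 and 0.26. Other probes had smaller treatment changes, 0.20 and 0.02 for Coq10b and 0.10 and 0.06 for Adipor2, none of them past the threshold. Ano2, a calcium-gated chloride channel gene, kept its methamphetamine arrays above the saline arrays, at 9.68, 9.63 and 9.60 against 9.41, 9.10 and 9.48. Its fitted change was 0.17 ± 0.229 and its interval held the treatment rise of 0.58 ± 0.115, while a dimmer Ano2 probe had -0.14 on day 24 and 0.11 in treatment.

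Of the reactive gliosis genes 1 of 12 had risen in treatment, and of the astrocyte markers 1 of 14, where 0.194% of all genes had risen. The medians of these lists were 0.09 and 0.05 on day 24. Gfap, the intermediate filament of astrocytes, was at 10.88, 10.90 and 10.80 on methamphetamine arrays of day 24 and at 11.10, 10.57 and 10.55 on saline arrays. The highest and the lowest arrays were both saline arrays, and the change was 0.05 ± 0.202 (95% interval -0.36 to 0.46) against 0.58 ± 0.101 in treatment. The treatment estimate came mainly from day 6, when Gfap averaged 12.17 ± 0.40 in methamphetamine mice and 10.54 ± 0.09 in saline mice, and on day 12 it averaged 10.82 ± 0.22 and 10.79 ± 0.14 (SD, n = 3 each). On day 12, the last day of injections, the group means of Gfap were thus closer than their SDs.

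Slc1a2, the main astrocyte glutamate transporter gene, changed by -0.10 ± 0.117 on day 24, which excludes its treatment rise of 0.27 ± 0.0584. Other Slc1a2 probes had treatment changes of 0.15 ± 0.0685 and, on a dim probe, -0.06 ± 0.0731, neither of them past the threshold. C4a, a complement gene, had 0.21 ± 0.154 on day 24 and 0.35 ± 0.0769 in treatment, and its near-identical neighbour C4b 0.02 ± 0.161 and 0.27 ± 0.0805, with cross-hybridisation between the pair possible. Spink8, a protease inhibitor gene that is also a hippocampal marker, was at 8.62, 8.70 and 8.83 on methamphetamine arrays and at 8.26, 8.34 and 8.70 on saline arrays. Of the genes that rose it kept the highest share of its treatment change, 0.40 ± 0.208 of 0.53 ± 0.104, at an unadjusted p of 0.0614. The hippocampal markers as a list had day 24 scores of -0.07 to -0.01 on methamphetamine arrays and -0.03 to 0.04 on saline arrays, as differences from the median array.

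The 11 genes that fell in treatment were spread over unrelated functions. Spon2 was at 6.84, 6.93 and 6.94 on methamphetamine arrays and at 6.81, 7.05 and 6.66 on saline arrays. The saline arrays span the methamphetamine arrays, and the change was 0.25 ± 0.170 (95% interval -0.09 to 0.59), which excludes the treatment change of -0.39 ± 0.0850. Car12, a carbonic anhydrase gene, and Gpc6, a glypican gene, were at 0.01 ± 0.150 and 0.01 ± 0.107 on day 24 against -0.36 and -0.23 in treatment, and both intervals exclude those values. Opn1mw, a cone opsin gene, kept the highest share of its treatment change among the genes that fell, -0.26 ± 0.133 of -0.34 ± 0.0666, with an unadjusted p of 0.0576. Ago4, Meaf6, Ttc33 and Ccr6 had day 24 changes of -0.10, -0.12, -0.14 and -0.06 with intervals that held both 0 and their treatment changes of -0.23, -0.25, -0.22 and -0.30. Adamtsl1 and Specc1 were both at 0.07 on day 24, on the other side of 0 from treatment.

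On the earlier withdrawal days the genes that rose had median changes of 0.24, 0.11 and 0.06 on days 13, 15 and 18, each from 3 methamphetamine and 3 saline arrays, and 21, 18 and 14 of 24 above 0. Day 24 followed with 0.06 and 15 of 24. The genes that fell had medians of -0.01, -0.05 and -0.13 on those days and 0.01 on day 24. Single genes past the threshold were Ciart on day 13 (0.81 ± 0.137; 0.00808% of genes) and the haemoglobin genes Hbb-bs and Hbb-bt on day 18 (0.0162%), at -1.66 and -1.53, both of which were near 0 on day 24 (-0.03 and -0.04). The test of day 24 against the mean of days 13, 15 and 18 gave 0 genes with limma, with 351 (2.84%) at an unadjusted p below 0.05. H2-T24, an antigen-presentation gene that rose on treatment day 12 by 0.53 ± 0.0966 (0.0243% of genes passed that day), was at 0.38 ± 0.0989 on day 24 with an unadjusted p of 0.000399, far from the adjusted threshold. It was named after its value was seen, and its 6 arrays overlap, at 6.73, 6.90 and 6.98 for methamphetamine and 6.66, 6.95 and 6.64 for saline.

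No treatment gene was among the 24 genes with the smallest unadjusted p whose day 24 arrays did not overlap, 12 in each direction. Their unadjusted p ran from 0.000335 to 0.00979 and their sizes from 0.22 to 0.49, and 20 of the 24 had mean levels below 8, near the dim end of the scale. Glt1d1, a glycosyltransferase family gene, was at 7.28, 7.33 and 7.30 on methamphetamine arrays and at 7.08, 6.88 and 6.94 on saline arrays, with a fitted change of 0.44 ± 0.115. Fig4, a phosphoinositide phosphatase gene, was at 8.16, 8.53 and 8.37 on methamphetamine arrays and at 7.08, 7.84 and 7.40 on saline arrays. The gap between the array means of Fig4 was wider than its fitted 0.49 ± 0.154, since the fit takes part of it as slide effects. Slc24a1, a sodium, calcium and potassium exchanger gene, and Slc17a1, a phosphate transporter gene, were higher by 0.49 ± 0.137 and 0.47 ± 0.144.

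Qars, which encodes glutaminyl-tRNA synthetase, was among the brighter of these genes. It was at 10.82, 10.91 and 10.91 on methamphetamine arrays and at 11.11, 11.12 and 11.05 on saline arrays, a narrow separation with a fitted change of -0.22 ± 0.0780. The other Qars probes, also bright, had day 24 changes of 0.11 and 0.078, so the probes of this gene disagree in sign. Mrpl33, a mitochondrial ribosomal protein gene, was at 11.75, 11.88 and 11.96 on methamphetamine arrays, against 12.09, 12.07 and 11.97 on saline arrays, with -0.23 ± 0.0834. A similarly bright second probe of Mrpl33 had 0.0062 ± 0.0903. Plcb1, a phospholipase C that acts downstream of G protein-coupled receptors, and Cyth2, an exchange factor of ARF proteins, had -0.36 ± 0.132 and -0.35 ± 0.106. None of these genes is past the threshold, so their directions are values of these 6 arrays.

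**Figure D4:**
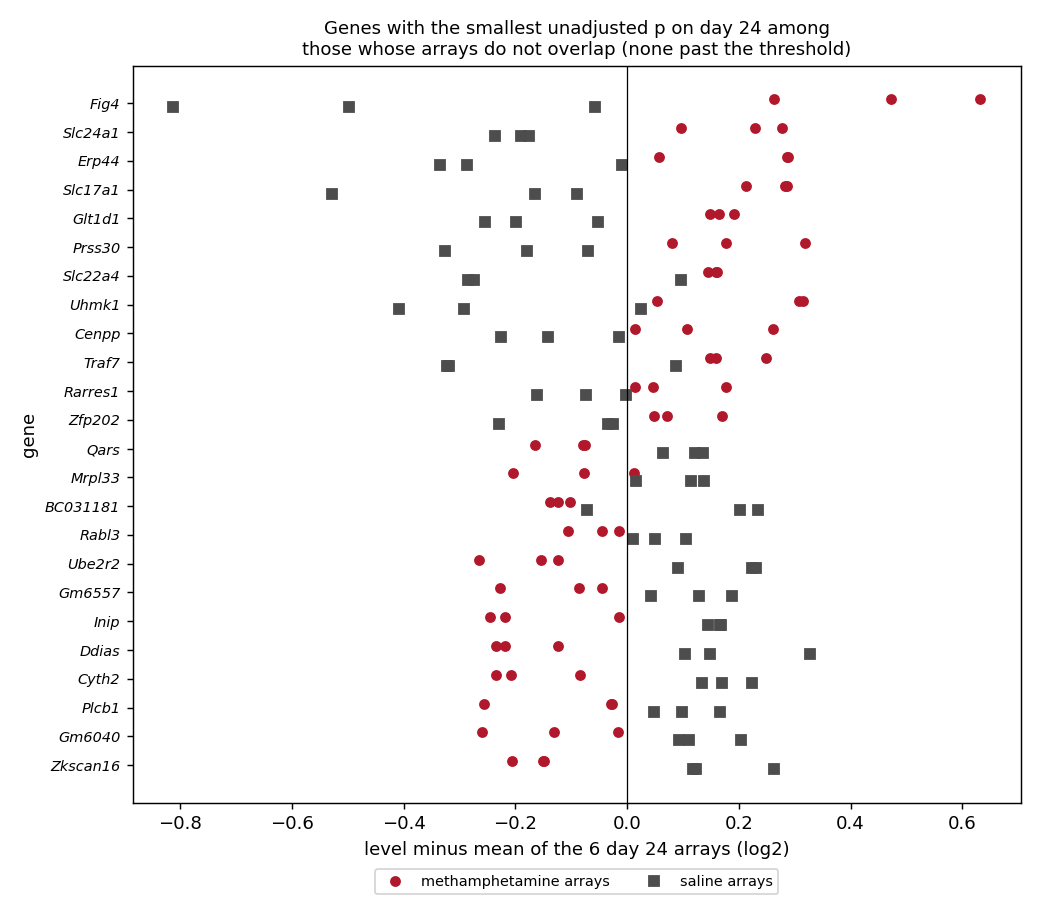
Level of each day 24 array minus the mean of the 6 day 24 arrays (log2, horizontal axis), for the 24 genes with the smallest unadjusted p among those whose methamphetamine (circles) and saline (squares) arrays do not overlap. Fig4 shows the widest gap and Qars one of the narrowest, with fitted changes of 0.49 and -0.22; none passes the threshold.

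The genes of striatal signalling showed no call on day 24 (0 of 14), and none in treatment. Pdyn, the prodynorphin gene of D1 neurons, was at 13.08, 13.11 and 13.11 on methamphetamine arrays and at 13.00, 12.60 and 13.07 on saline arrays, with a change of 0.10 ± 0.323. Penk, the proenkephalin gene of D2 neurons, was at 12.06, 12.01 and 12.24 on methamphetamine arrays and at 11.59, 11.58 and 12.04 on saline arrays. Saline replicate 3 alone overlaps the methamphetamine values of Penk, and the fitted change was -0.01 ± 0.400, with a 95% interval of -0.81 to 0.80 that allows large changes of either sign. Tac1, the substance P precursor gene, had 0.07 ± 0.374, and Ptpn5, a striatum-enriched phosphatase gene, 0.44 ± 0.273. Of 12 glutamate and GABA receptor genes none was called, and their median was -0.03 on day 24, as in treatment.

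No activity-dependent gene passed the threshold on day 24. Fos was at 9.88, 9.36 and 10.06 on methamphetamine arrays and at 9.57, 10.06 and 10.15 on saline arrays, a change of 0.23 ± 0.336. Arc, another immediate early gene, was at 10.59, 10.43 and 11.17 against 11.03, 10.98 and 11.15, with -0.05 ± 0.375. The 13 immediate early genes tested had a median of 0.05 on day 24, with 8 above and 5 below 0, and the 13 late activity-regulated genes a median of 0.00. Before slide terms were removed, the arrays of the groups did not overlap for 3 of the 13 immediate early genes, all lower in methamphetamine samples, and for 4 of the 13 late genes, 1 higher and 3 lower, where 17.1% of all genes did not overlap. Bdnf, a neurotrophin gene on the second list, had its methamphetamine arrays at 7.89, 7.67 and 7.59, all below the saline arrays at 8.19, 8.40 and 7.90. The fitted change of Bdnf was nevertheless 0.00 ± 0.349 with the slide terms removed.

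Interferon-stimulated genes lay above 0 in 8 of 9 cases on day 24, with a median of 0.22 on day 24 and 0.28 in treatment, and none was called in either period. Bst2, an antiviral membrane protein gene, was at 7.63, 7.86 and 7.60 on methamphetamine arrays and at 7.64, 7.30 and 7.13 on saline arrays, with 0.45 ± 0.225 at an unadjusted p of 0.0504. Irf9, a transcription factor of the interferon response, had 0.19 ± 0.163. Class II antigen presentation genes had a median of 0.19 on day 24 and of -0.32 in treatment, with 5 of 6 above 0 on day 24. H2-Ab1 was at 7.68, 7.94 and 7.45 on methamphetamine arrays and at 8.19, 7.68 and 7.58 on saline arrays, which overlap, with a fitted 0.46 ± 0.288. The mean of its methamphetamine arrays was the lower, so the sign of the fitted change rests on the slide terms. Dimmer H2-Ab1 probes had day 24 changes of -0.016 and 0.042. The heat shock chaperone genes had 5 of 17 and the endoplasmic reticulum chaperone genes 6 of 14 above 0, with medians of -0.04 and -0.03.

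**Figure D5:**
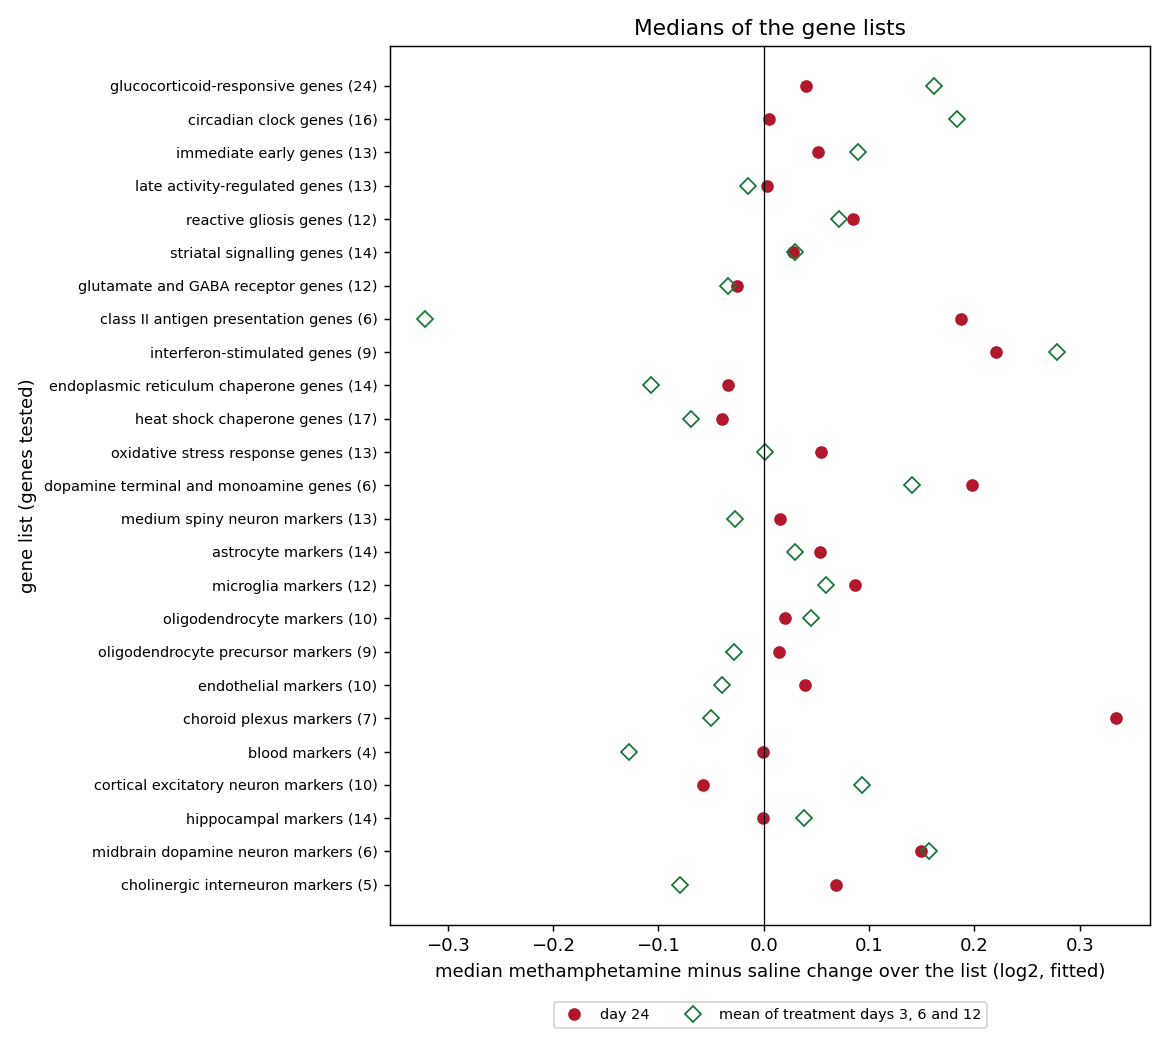
Median fitted methamphetamine minus saline change (log2, horizontal axis) of each gene list, with the number of genes tested in brackets: filled circles are day 24 and open diamonds the mean of treatment days 3, 6 and 12. Clock genes are at 0.00 on day 24 and 0.18 in treatment, and class II genes at 0.19 and -0.32.

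No marker of another cell type passed the threshold on day 24, but several marker scores differed between the arrays of the groups, and their part in the gene results was not tested. In bulk samples fewer cells of a type and less RNA per cell cannot be told apart. Cortical excitatory neuron markers scored -0.17 to -0.03 on methamphetamine arrays and 0.10 to 0.33 on saline arrays, as differences from the median array, so the groups did not overlap. Astrocyte markers scored 0.03 to 0.08 on methamphetamine arrays and -0.11 to -0.05 on saline arrays, again without overlap. Microglia markers scored 0.0725 to 0.166 and -0.0837 to 0.0688, so their groups nearly touched. The groups overlapped for every other marker list scored, and 17.1% of all single genes did not overlap. After removal of slide terms the medians of the cortical, astrocyte and microglia lists were -0.06, 0.05 and 0.09, with no member past the threshold. Choroid plexus markers varied from array to array: Ttr, the transthyretin gene, was at 13.89, 11.88 and 10.84 on methamphetamine arrays and at 9.99, 11.76 and 13.94 on saline arrays. All 7 choroid plexus markers had fitted changes above 0, with a median of 0.33 and a Ttr value of 3.02 ± 2.27. For 1 of the 7 all methamphetamine arrays lay below all saline arrays before slide terms were removed, as for 8.92% of all genes. The sign of its fitted change thus rests on the slide terms, and the fitted Ttr value is far larger than the gap between its array means. Blood markers scored -0.27 to 0.39 on methamphetamine arrays and -0.28 to 0.33 on saline arrays.

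Heroin mice of day 24 were compared with the same 3 saline arrays, so the comparisons share them. In that comparison 0 genes passed with limma, with 359 (2.90%) at an unadjusted p below 0.05. Methamphetamine against heroin on day 24 gave 0 genes as well, with 360 (2.91%) at an unadjusted p below 0.05. The methamphetamine minus saline changes of Ciart, Plin4, Per2 and Spink8 were -0.07, 0.23, -0.01 and 0.40, and the heroin minus saline changes of these genes were 0.18, -0.11, 0.33 and 0.37.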

How the data were processed

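Expression in total RNA from the striatum was read on Illumina arrays, 6 to a slide. The deposited non-normalized table gives, per the file headers, a linear intensity for every probe of each sample, and the authors' deposited processed table holds log2 values. The software, background correction and normalization behind both are not given in the sources used here. The tables hold no detection p-values, so the intended correction and filter that use them were replaced: intensities of 45281 probes and 78 arrays were quantile-normalized and taken to log2, and a probe was kept (23810 were) if some group out of 25 had it brighter than the median probe in each of its samples. The platform annotation names 1 gene for 34885 probes, several for 18 and none for 10378. Each of the 12371 genes was represented by its brightest probe on average; 5028 genes had several.

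Model fitting used limma 3.58.1 (R 4.3.3) on all 78 samples together, with a mean per group and a term per slide, 37 coefficients and 41 residual degrees of freedom. Tests were two-sided and adjusted by Benjamini-Hochberg over all genes. Contrasts were day 24, the mean of treatment days 3, 6 and 12, their difference, and day 24 minus days 13, 15 and 18. Contrasts within a treatment group and a fit of chip lot 2 alone were chosen after seeing the data. The members, gene lists and named genes were chosen with earlier results of these data known. Named genes were those past the threshold on day 24 or, as none was, the 12 per direction with the smallest unadjusted p among genes whose arrays did not overlap before or after removal of slide terms. Added to them were the treatment genes, up to 15 per direction, up to 6 members per list with the smallest p, and a set chosen by name, of which Adora2a was not tested. The other treatment genes, Gkn3, Inmt, H2-T24, Hbb-bs and Hbb-bt were named after their values were seen.

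Methamphetamine and saline samples share replicate numbers on day 24. The deviations of same-numbered arrays correlated by 0.032, 0.012 and -0.010, and those of differently numbered arrays by -0.158 to 0.155. Whether the numbers pair the samples was not tested, and the main fit has no term for them. Alternatives covered normalization, background, filter, probe choice, slide, lot, array position, replicate block, weights, variance model, comparison arrays and leaving out each array. The scripts were tested on simulated data. Promoters came from RefSeq on GRCm38.p6.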

Additional observations from a re-analysis of the deposited data

Results flagged for a closer look

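Ciart stood out because its methamphetamine effect in treatment minus that on day 24, 0.87 log2 units, passed a test of the difference itself. Its day 24 level was 10.15 in methamphetamine mice and 10.18 in saline mice, against 10.06 and 9.24 over treatment days 3, 6 and 12.

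Spink8 stood out because of a naive array far from the other 5: replicate 3 was at 8.77 and the others at 8.23 to 8.39, so that the gap to the nearest array took up 0.716 of the whole range. Chance marks about 1 group in 20 this way. The naive arrays of a short list of genes, chosen by name, were searched by this rule and only Spink8 was marked, so the mark can be chance. No methamphetamine or saline value of Spink8 rests on the naive arrays other than through the slide terms.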

How the results depend on the processing

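The day 24 comparison gave 0 genes with limma under every setting tried except against all 12 saline withdrawal arrays, where 3 passed and Ciart turned to 0.57; leaving out single arrays gave 0 to 0. At an unadjusted p below 0.05 it held 205 to 1457 genes over the settings that kept every array of both groups or used chip lot 2 alone. The 35 treatment genes became 19 with median centring, 19 with no slide term, 60 with slide as a random block, 15 with a replicate block, 118 with array weights, 572 with day 1 included, 2 without the heroin and naive arrays and 15 on chip lot 2 alone. Leaving out single arrays gave 14 to 35, lowest without saline treatment day 6 replicate 1. Without methamphetamine day 3 replicates 1 or 2, methamphetamine day 6 replicates 1 or 3, saline day 3 replicate 1 or saline day 6 replicate 2 there were 22, 17, 21, 22, 20 and 22. The call of Ciart between treatment and day 24 gave 0 genes with no slide term, with chip lot in place of slide, with the replicate block, with only the groups compared, without the heroin and naive arrays, with day 1 included and on chip lot 2 alone, where 463 to 814 genes had an unadjusted p below 0.05. It was 0 to 1 on leaving out single arrays, 0 without methamphetamine day 24 replicate 2. Under the settings that left out no single array, the Ciart difference itself was 0.66 to 0.93 (0.41 in the deposited values), and 0.81 with the replicate block (limma adjusted p 0.0638). Of the 24 genes that rose in treatment 11 to 19 were above 0 on day 24 (medians -0.02 to 0.14), 12 with the replicate block (median -0.0023), and of the 11 that fell 4 to 10 were below 0, except that 3 of the 7 left by the stricter filter were. The test of day 24 against the earlier withdrawal days gave 0 genes throughout, with 214 to 1273 at an unadjusted p below 0.05. In the deposited log2 table the day 24 level minus the treatment level of Ciart was -0.42 in methamphetamine mice and -0.014 in saline mice, and that of Arntl was 0.12 in methamphetamine mice, all opposite in sign to the values from the signals. The means of the 8 saline days agree within 0.02 in that table for 100% of genes, so saline levels cannot move there by construction. The causes of the other changes were not tested. With 3 arrays a group, the unadjusted 95% interval of a typical gene reached 0.233 log2 units to either side. Larger changes could still miss the adjusted threshold, as Glt1d1 did at 0.44.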
